A study of Mus musculus with 7 samples.

Results

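The genes described here encode the non-collagen proteins of the extracellular matrix and the enzymes that crosslink its fibres. They were chosen by symbol: the rows of the deposited count table named after any of 38 listed genes, out of 55487 genes in all. Every one of the 38 was found once and had enough reads to be tested. RNA was sequenced from the inguinal white fat, a subcutaneous depot at the hind leg, of NOD/ShiLtJ mice, an inbred strain that develops autoimmune diabetes. The injected mice had a blood glucose between 190 and 230 mg/dL. The 3 sham libraries came from mice given KRBH buffer. The 4 imBAT libraries came from mice given imBAT conditioned buffer, which the protocol calls CB-100: the part larger than 100 kDa of a buffer conditioned by brown adipocytes. It was injected under the skin for 7 days at 1.5 mg/kg body weight, and RNA was taken 2 to 8 weeks afterwards; the week for each library and the age and sex of the animals are not stated in the sources used here. The labels name no gene edit or transgene and do not say whether each library is a separate mouse, so the p-values reflect only how far these libraries spread, which may be technical.

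Connective tissue is built from collagen fibres, elastic fibres and basement membranes, and the proteins described here hold these structures together. Fibronectin and the matricellular glycoproteins tie cells to the matrix and modulate their behaviour; fibrillins, fibulins and elastin build elastic fibres; small leucine-rich proteoglycans coat collagen fibrils and set their width; and lysyl oxidases make the covalent crosslinks that stiffen collagen and elastin. Perlecan and the nidogens link laminin to collagen in the basement membrane that surrounds each fat cell and each capillary. In white fat, fibroblast-like stromal cells and adipocyte progenitors are the main makers of fibrillar matrix, and a fat cell rebuilds its own basement membrane as it grows.

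Counts totalled 41025786 to 44983250 in the sham libraries and 43360208 to 63650016 in the imBAT libraries. Levels are given as TMM-scaled CPM, that is counts scaled to a common library size after correction for composition, and changes as the log2 fold change of imBAT against sham from edgeR's quasi-likelihood test with its standard error (SE). A gene was called where its Benjamini-Hochberg adjusted p over all genes tested was under 0.05. White adipocyte markers rose in these libraries (20 of 20, median log2 fold change 3.04) and T cell markers fell (18 of 18, median -1.53), as did 14 of 15 B cell markers (median -1.71). In bulk tissue, fewer cells of a type and less RNA per cell cannot be told apart.

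Most of the matrix genes were higher after the brown adipocyte fraction. Of the 38 genes, 31 rose, 2 fell and 5 were not called, where 43.5% of the 26393 genes tested across the genome were called in either direction, 24.3% as higher and 19.3% as lower. Their median log2 fold change was 2.23, against -0.01 over all genes tested. With upper-quartile scaling, which moved the median of all genes to -0.25, 4722 genes were called higher and 8180 lower in place of 6407 and 5084, while the counts for the 38 genes stayed at 31 and 2. A fitted log2 fold change of at least 2 was reached by 23 of the 38 and by 4.63% of all genes tested. For 34 of the 38 the sham and imBAT libraries did not overlap, as for 52% of all genes tested. The genes that fell were Fmod and Tnc. Those not called were Thbs4, Loxl4, Fbn2, Emilin1 and Bgn. Lumican (Lum) rose most, 14.7-fold, and fibromodulin (Fmod), a proteoglycan of the same family, fell most, 2.89-fold.

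The share of lymphocyte RNA differed between the groups as well, and the calls did not hold when it was modelled. A fit with a lymphoid score as covariate (the mean log2 CPM of the T and B cell markers, 6.95 to 7.11 in sham and 4.35 to 5.84 in imBAT libraries) left the sign of all 38 genes as it was, but edgeR called none of them. Their median log2 fold change was then 1.55 in place of 2.23, the smallest adjusted p was 0.0902, for Thbs1, and 22 of the 38 had an unadjusted p under 0.05. In that fit Fmod was at -0.49 and Tnc at -0.55. Of all genes tested 2 were called. The score did not overlap between the groups, so lymphocyte content and treatment cannot be told apart in 7 libraries.

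**Figure D1:**
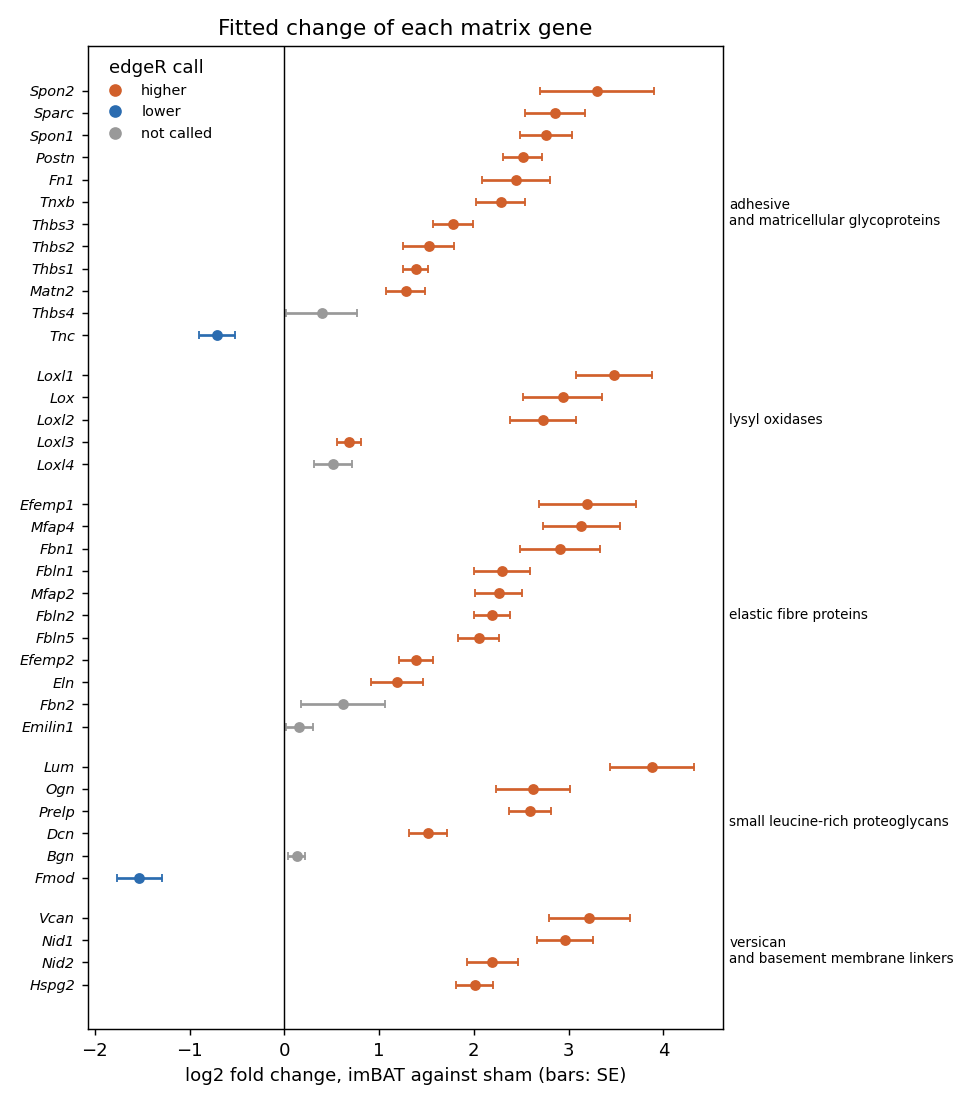
Fitted log2 fold change of imBAT against sham (horizontal axis) for each of the 38 genes, grouped by role; bars show the SE, orange marks genes called higher, blue genes called lower and grey genes not called. The values run from -1.53 for Fmod to 3.88 for Lum.

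Of the 12 adhesive and matricellular glycoproteins, 10 rose, and their median log2 fold change was 2.03. Postn encodes periostin, which helps collagen fibrils mature and lysyl oxidase become active. Postn stood at 74.3, 56.2 and 72.4 CPM in sham replicates 1 to 3 and 420.4, 311, 501 and 316 CPM in imBAT replicates 1 to 4. The groups were far apart, and Postn rose 5.72-fold (log2 fold change 2.52 ± 0.21, adjusted p = 0.000767). Spon1, which encodes the secreted adhesion protein spondin-1, stood at 46.6, 50.3 and 42.7 CPM in sham replicates 1 to 3 and 477, 237, 322 and 229 CPM in imBAT replicates 1 to 4. Every imBAT library was above every sham library, with replicate 1 the highest, and the rise was 6.79-fold (log2 fold change 2.76 ± 0.27, adjusted p = 0.000816). Thbs1 encodes thrombospondin-1, which activates latent TGF-beta and restrains blood vessel growth. Its values of 80.5, 67.6 and 68.7 CPM in sham replicates 1 to 3 and 222, 180.2, 163 and 189.9 CPM in imBAT replicates 1 to 4 were tight within each group, and it rose 2.61-fold (log2 fold change 1.39 ± 0.13, adjusted p = 0.000816).

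Sparc, a collagen-binding glycoprotein of remodelling tissue, rose 7.25-fold from 182 ± 28.8 CPM (SD, n = 3) to 1316 ± 503 CPM (n = 4). Fn1, the fibronectin gene, rose 5.43-fold to 1112 ± 465 CPM (n = 4), with imBAT replicate 2 at 498.2 CPM and the other imBAT libraries between 1015 and 1540 CPM. Tnxb, the tenascin of loose connective tissue, rose 4.86-fold. Spon2, which encodes another secreted spondin, rose 9.86-fold from 3.35 ± 1.87 CPM (SD, n = 3), and its SE of 0.60 was the largest among the 38 genes. Among the other thrombospondins, Thbs2 rose 2.87-fold and Thbs3 3.44-fold. Matn2, a filament-forming matrilin, rose 2.43-fold.

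Tenascin-C (Tnc), a glycoprotein of developing, injured and lymphoid tissue, moved the other way. Tnc stood at 60.5, 89.3 and 54.6 CPM in sham replicates 1 to 3 and 34.9, 50.5, 39.2 and 41.7 CPM in imBAT replicates 1 to 4. All 4 imBAT libraries lay below all 3 sham libraries and Tnc fell 1.64-fold (log2 fold change -0.71 ± 0.19, adjusted p = 0.016). Without sham replicate 2, the highest library, the log2 fold change was -0.47 and the adjusted p was 0.058. Thbs4, a thrombospondin best known from muscle and tendon, stood at 4.02, 2.81 and 2.60 CPM in sham replicates 1 to 3 and 4.0, 2.39, 3.03 and 7.14 CPM in imBAT replicates 1 to 4. These ranges overlapped, and the log2 fold change of 0.39 ± 0.38 was not called (adjusted p = 0.422); without imBAT replicate 4, the highest library, it was -0.0012.

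Lysyl oxidases oxidise lysines of collagen and elastin so that neighbouring chains can bond. Of the 5 genes, Loxl1, Lox, Loxl2 and Loxl3 rose, with a median of 2.73 over the family. Loxl1, the enzyme most tied to elastic fibres, stood at 20.1, 14.4 and 26.4 CPM in sham replicates 1 to 3 and 306, 145, 319.8 and 135 CPM in imBAT replicates 1 to 4. It rose 11.2-fold (log2 fold change 3.48 ± 0.40, adjusted p = 0.00104), and imBAT replicates 1 and 3 were over 2 times as high as replicates 2 and 4. Lox, the founding member, stood at 18.4, 6.49 and 12.0 CPM in sham replicates 1 to 3 and 95.6, 60.6, 144 and 76.3 CPM in imBAT replicates 1 to 4. Its lowest imBAT library was above 3 times its highest sham library, and the rise was 7.65-fold (log2 fold change 2.94 ± 0.41, adjusted p = 0.00175). Loxl2, which also acts on basement membrane collagen, stood at 4.31, 3.33 and 5.92 CPM in sham replicates 1 to 3 and 30.1, 25.5, 46.5 and 18.3 CPM in imBAT replicates 1 to 4. It rose 6.64-fold (log2 fold change 2.73 ± 0.35, adjusted p = 0.00127).

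The remaining pair had the smallest fold changes of the family. Loxl3 rose 1.60-fold, from 15.5 ± 0.471 CPM (SD, n = 3) to 24.8 ± 3.37 CPM (n = 4). Loxl4 stood at 4.64, 6.65 and 5.63 CPM in sham replicates 1 to 3 and 10.2, 7.08, 8.07 and 6.93 CPM in imBAT replicates 1 to 4. Its groups did not overlap, but they nearly met at 6.65 and 6.93 CPM, and the log2 fold change of 0.52 ± 0.20 was not called (adjusted p = 0.0691; 0.0331 with limma voom). The ratio of Loxl1 to Loxl3 counts within a library, which does not depend on scaling between libraries and was computed after the values were seen, was 1.25, 0.931 and 1.76 in sham replicates 1 to 3 and 10.6, 6.47, 12.2 and 6.22 in imBAT replicates 1 to 4.

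**Figure D2:**
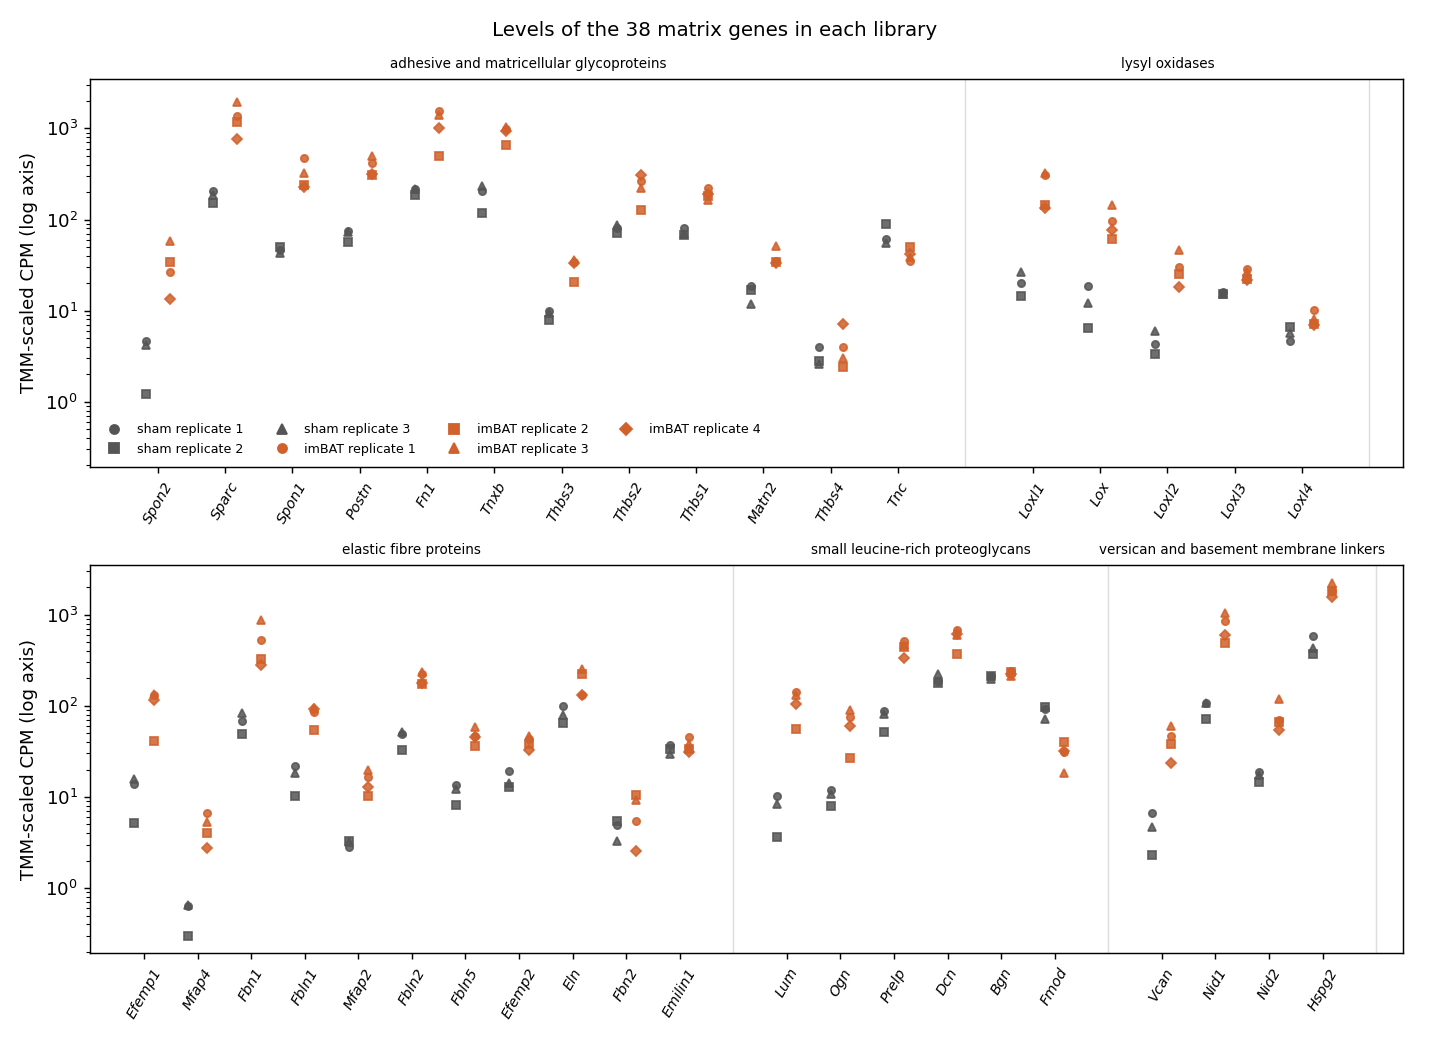
TMM-scaled CPM (log axis) of the 38 genes in each library, grouped by role and ordered by fold change; grey points are the 3 sham and orange points the 4 imBAT libraries, with 1 symbol per replicate number, which does not pair libraries. For Thbs4, Fbn2, Emilin1 and Bgn the groups overlap, and for Fmod and Tnc the imBAT libraries lie below the sham libraries.

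Of the 11 elastic fibre genes, 9 rose, with a median log2 fold change of 2.19. Fbln2, a fibulin of elastic fibres and vessel walls, stood at 49.1, 32.9 and 51.5 CPM in sham replicates 1 to 3 and 225, 175, 232 and 179 CPM in imBAT replicates 1 to 4. It rose 4.56-fold (log2 fold change 2.19 ± 0.19, adjusted p = 0.000767). Fbln5, a fibulin that guides elastin onto the microfibril, stood at 13.5, 8.25 and 12.2 CPM in sham replicates 1 to 3 and 47.0, 36.5, 58.4 and 45.3 CPM in imBAT replicates 1 to 4. It rose 4.14-fold (log2 fold change 2.05 ± 0.21, adjusted p = 0.000867). Mfap2, a small glycoprotein bound to microfibrils, stood at 2.85, 3.27 and 3.18 CPM in sham replicates 1 to 3 and 16.6, 10.3, 20 and 12.9 CPM in imBAT replicates 1 to 4, and its 4.80-fold rise (log2 fold change 2.26 ± 0.25, adjusted p = 0.000944) was large beside the spread of the sham libraries.

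Among the others, Fbn1, the fibrillin that forms the core of the microfibril, rose 7.52-fold from 66.7 ± 17.0 CPM (SD, n = 3) to 502 ± 268 CPM (n = 4), where imBAT replicate 3 had 868 CPM and replicate 4 had 282.4 CPM. Efemp1, a fibulin also called fibulin-3, rose 9.16-fold, and Mfap4, a further microfibril protein, 8.79-fold from a low 0.534 ± 0.202 CPM (SD, n = 3). Fbln1 rose 4.90-fold, Efemp2, needed for elastin crosslinking, 2.62-fold, and elastin (Eln) itself 2.28-fold, from 81.2 ± 17.1 CPM (SD, n = 3) to 185 ± 62.5 CPM (n = 4). Elastin thus had the smallest log2 fold change among the 9 elastic fibre genes that rose (1.19, against 1.39 to 3.20 for the other 8).

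Fbn2, the fibrillin typical of embryonic tissue, stood at 4.86, 5.46 and 3.28 CPM in sham replicates 1 to 3 and 5.49, 10.6, 9.25 and 2.54 CPM in imBAT replicates 1 to 4. The ranges overlapped, with imBAT replicate 4 below every sham library, and the log2 fold change of 0.62 ± 0.45 was not called (adjusted p = 0.285; 0.0472 without that library). Emilin1, a glycoprotein at the interface of elastin and microfibrils, stood at 37.0, 33.4 and 29.7 CPM in sham replicates 1 to 3 and 45.4, 33.6, 38.6 and 31.4 CPM in imBAT replicates 1 to 4. Its groups overlapped as well (log2 fold change 0.16 ± 0.15, adjusted p = 0.402), and with upper-quartile scaling its value was -0.082. The ratio of Fbn1 to Fbn2 counts was 13.9, 9.01 and 25.3 in sham replicates 1 to 3 and 96.9, 30.6, 93.9 and 111.0 in imBAT replicates 1 to 4, without overlap. This pair was also chosen after the values were seen.

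The 6 small leucine-rich proteoglycans were split: Lum, Ogn, Prelp and Dcn rose, Bgn was not called and Fmod fell. Lum encodes lumican, which binds collagen fibrils and limits their thickness. Lum stood at 10.2, 3.68 and 8.29 CPM in sham replicates 1 to 3 and 143, 55.9, 131 and 104 CPM in imBAT replicates 1 to 4. Its rise was the largest of the 38 genes, 14.7-fold (log2 fold change 3.88 ± 0.45, adjusted p = 0.00103). Prelp, a proteoglycan that anchors basement membranes to the underlying tissue, stood at 87.2, 52.1 and 80.3 CPM in sham replicates 1 to 3 and 519, 445, 466 and 334 CPM in imBAT replicates 1 to 4. It rose 6.02-fold (log2 fold change 2.59 ± 0.22, adjusted p = 0.000767). Decorin (Dcn), which binds collagen and traps TGF-beta, stood at 189, 179 and 222 CPM in sham replicates 1 to 3 and 674, 372, 593 and 614 CPM in imBAT replicates 1 to 4, and its 2.86-fold rise (log2 fold change 1.52 ± 0.20, adjusted p = 0.00147) was smaller than those of Lum and Prelp. Ogn, also called osteoglycin or mimecan, rose 6.16-fold, with imBAT replicate 2 at 26.8 CPM and the other imBAT libraries between 60.8 and 89.5 CPM.

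Fibromodulin (Fmod) binds the same region of collagen as lumican and is typical of tendon and other dense connective tissue. Fmod stood at 92.9, 98.0 and 72.3 CPM in sham replicates 1 to 3 and 31.1, 40.2, 18.3 and 31.7 CPM in imBAT replicates 1 to 4. Every imBAT library was below every sham library, with replicate 3 the lowest, and Fmod fell 2.89-fold (log2 fold change -1.53 ± 0.24, adjusted p = 0.00225). Biglycan (Bgn), the closest relative of decorin, stood at 214, 210.0 and 199 CPM in sham replicates 1 to 3 and 239, 236, 210.4 and 225 CPM in imBAT replicates 1 to 4. Its values lay between 199 and 239 CPM in the 7 libraries, with imBAT replicate 3 inside the sham range (log2 fold change 0.13 ± 0.09, adjusted p = 0.268), and with upper-quartile scaling the value was -0.11, again not called.

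The unequal change within this family can also be given as ratios that need no scaling between libraries. All the pairs of genes given here were chosen after their values were seen, and no ratio was tested. The ratio of Lum to Fmod counts was 0.109, 0.0375 and 0.115 in sham replicates 1 to 3 and 4.59, 1.39, 7.16 and 3.29 in imBAT replicates 1 to 4. Fmod thus had more reads than Lum in each sham library and fewer in each imBAT library. The ratio of Dcn to Bgn counts was 0.886, 0.852 and 1.12 in sham replicates 1 to 3 and 2.82, 1.58, 2.82 and 2.73 in imBAT replicates 1 to 4. Of the 9 ratios computed, the groups overlapped in none, including Nid1 to Nid2, where both genes rose (4.96 to 6.17 in sham and 7.34 to 12.1 in imBAT). Because the pairs were chosen from these same values, this lack of overlap is no separate evidence. Thbs1 to Thbs4 came closest, at 26.4 in sham replicate 3 and 26.6 in imBAT replicate 4.

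**Figure D3:**
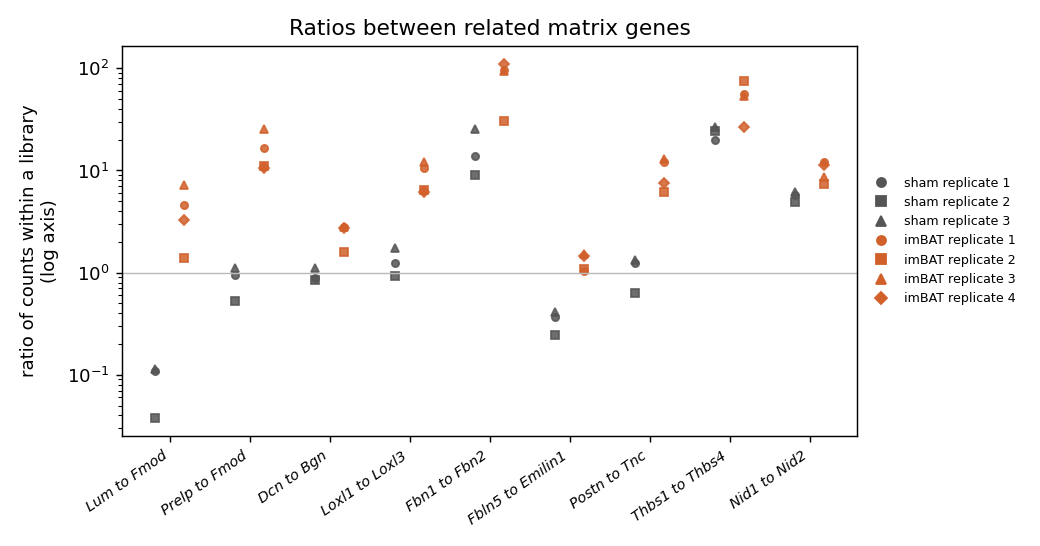
Ratio of counts between 2 related genes within each library (log axis) for 9 pairs; grey points are sham and orange points imBAT libraries, with a line at 1. The Lum to Fmod ratio lies between 0.0375 and 0.115 in sham and between 1.39 and 7.16 in imBAT.

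These proteoglycan genes lie in small clusters of the mouse genome (GRCm38). Prelp and Fmod moved in opposite directions. In the clusters of Dcn and of Ogn every gene tested had a positive log2 fold change, though not every one was called. Prelp lies on chromosome 1 at 133910304 to 133921414 on the minus strand, and Fmod, on chromosome 1 at 134037254 to 134048277 on the plus strand, starts 116 kb beyond its end. Prelp rose while Fmod fell, and the Prelp to Fmod ratio of counts went from 0.532 to 1.11 in sham to 10.5 to 25.5 in imBAT. Optc, the opticin gene beside Prelp, was scarce, with 11 to 14 counts in the sham and 15 to 31 in the imBAT libraries, and was not called (log2 fold change 0.79 ± 0.35, adjusted p = 0.0925). Dcn and Lum are neighbours on chromosome 10, 47.0 kb apart, and both rose. Kera, the next gene of this cluster, had too few reads to be tested. It had 0, 0 and 1 counts in sham replicates 1 to 3 and 26, 31, 4 and 1 in imBAT replicates 1 to 4. Epyc, in the same cluster, was nearly silent, with 2 counts over the sham libraries and 8 to 35 per imBAT library; it was called higher (adjusted p = 0.00643) and its groups did not overlap, but the few sham counts give its fold no useful bound. Ogn sits with Ecm2, Aspn and Omd on chromosome 13; Ecm2 and Aspn rose 2.53-fold and 2.08-fold, and Omd was not called (log2 fold change 1.07 ± 0.43, adjusted p = 0.0737).

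The sequences upstream of 2 such contrasting pairs are shown, since Prelp and Fmod are neighbours that moved in opposite directions and so, among the matricellular genes, did Postn and Tnc. Each is the 250 bases before the start site of the RefSeq transcript (GRCm38.p6), read 5′ to 3′ on the strand of the gene, and capitals mark matches on either strand to 4 motifs: an AP-1 site spelled TGANTCA, the GC box spelled GGGCGG, the TATA box spelled TATAAA, and the box known by its own letters as CCAAT.
Prelp, chr1:133921402-133921651, minus strand: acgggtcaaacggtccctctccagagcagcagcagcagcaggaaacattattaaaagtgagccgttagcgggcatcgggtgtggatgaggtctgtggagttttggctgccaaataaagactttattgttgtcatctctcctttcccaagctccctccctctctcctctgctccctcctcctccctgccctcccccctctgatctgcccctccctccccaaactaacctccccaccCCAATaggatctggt
Fmod, chr1:134037004-134037253, plus strand: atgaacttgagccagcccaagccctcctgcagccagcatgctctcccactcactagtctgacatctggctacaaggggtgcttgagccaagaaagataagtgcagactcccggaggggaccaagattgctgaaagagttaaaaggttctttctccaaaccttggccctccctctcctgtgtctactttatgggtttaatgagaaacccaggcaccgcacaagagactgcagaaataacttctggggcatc
Postn, chr3:54360857-54361106, plus strand: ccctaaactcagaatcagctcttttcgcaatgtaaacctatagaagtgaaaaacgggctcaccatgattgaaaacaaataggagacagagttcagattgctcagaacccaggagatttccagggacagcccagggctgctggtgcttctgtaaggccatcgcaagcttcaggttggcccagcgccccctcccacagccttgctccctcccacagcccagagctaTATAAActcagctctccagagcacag
Tnc, chr4:64047016-64047265, minus strand: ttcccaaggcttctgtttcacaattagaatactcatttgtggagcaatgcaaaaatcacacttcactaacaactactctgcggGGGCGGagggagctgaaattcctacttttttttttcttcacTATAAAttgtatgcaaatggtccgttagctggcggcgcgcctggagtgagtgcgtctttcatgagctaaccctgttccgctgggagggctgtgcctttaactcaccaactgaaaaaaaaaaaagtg
Prelp had a CCAAT box that began 15 bases before its RefSeq start. That start lies 13 bases inside the gene in the GENCODE annotation, so the box overlaps the annotated gene. Postn had a TATA box that began 26 bases before its start, and Tnc a TATA box 126 and a GC box 167 bases before. None of the 4 motifs was found in these letters of Fmod. RefSeq entries were matched for 23 of the 38 genes. A GC box was found in 13 of these 23 (33% of 27025 genes with an entry), a CCAAT box in 7 (34.4%), a TATA box in 4 (12.9%), an AP-1 site in 2 (6.84%) and a MCAT site (CATTCC), which TEAD factors bind, in 4 (12.6%). Such matches describe the letters and do not show that a factor binds.

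Versican, perlecan and the nidogens all rose. Hspg2 encodes perlecan, the large heparan sulphate proteoglycan of basement membranes. Hspg2 stood at 584, 375 and 434 CPM in sham replicates 1 to 3 and 1824, 1826, 2241 and 1581 CPM in imBAT replicates 1 to 4, and rose 4.03-fold (log2 fold change 2.01 ± 0.19, adjusted p = 0.000816). The nidogens bridge laminin and collagen IV. Nid1 stood at 107, 72.6 and 107 CPM in sham replicates 1 to 3 and 844, 485, 1042 and 602 CPM in imBAT replicates 1 to 4, and rose 7.78-fold (log2 fold change 2.96 ± 0.30, adjusted p = 0.000824). Nid2 stood at 18.6, 14.6 and 17.4 CPM in sham replicates 1 to 3 and 69.8, 66.1, 119.7 and 53.9 CPM in imBAT replicates 1 to 4, with imBAT replicate 3 well above the other 3, and rose 4.58-fold (log2 fold change 2.20 ± 0.27, adjusted p = 0.00119). Vcan, the versican of loose, hydrated matrix, rose 9.30-fold, from 4.55 ± 2.18 CPM (SD, n = 3) to 42.2 ± 15.4 CPM (n = 4).

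Levels per kilobase of exon allow only a rough comparison of genes, since the length is that of all annotated exons of a gene together. On this scale the make-up of the group also differed. In sham libraries the highest mean levels were those of Sparc (47.9 CPM per kb), Bgn (34.0), Dcn (33.7), Hspg2 (32.4) and Fmod (26.5). In imBAT libraries they were those of Sparc (348), Hspg2 (131), Prelp (122), Nid1 (107) and Dcn (96.4). Bgn went from rank 2 to rank 13 of the 38 with a level of 37.3 CPM per kb in imBAT, Fmod from rank 5 to rank 26 and Tnc from rank 13 to rank 33. Lum went from rank 26 to rank 11 and Loxl1 from rank 17 to rank 8. The lowest mean levels in imBAT libraries were those of Fbn2 (0.527 CPM per kb), Thbs4 (1.26) and Loxl4 (1.91). Bgn and Dcn in sham libraries, at 34.0 and 33.7 CPM per kb, differed by less than the spread between libraries.

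Summed over the 38 genes, the level was 402.3, 316.4 and 375.3 CPM per kb in sham replicates 1 to 3 and 1783, 1239, 2023 and 1288 CPM per kb in imBAT replicates 1 to 4, a ratio of means of 4.34. By role, the ratio was 7.10 for the lysyl oxidases, 5.22 for the adhesive and matricellular glycoproteins, 5.13 for versican and the basement membrane linkers, 4.35 for the elastic fibre proteins and 2.75 for the small leucine-rich proteoglycans. Such sums lean on the most abundant genes. In imBAT libraries Loxl1 made up 68.7 of the mean 101.3 CPM per kb of the lysyl oxidases. Sparc made up 348 of the 685.5 CPM per kb of the adhesive and matricellular glycoproteins. Within the imBAT group, replicate 3 was the highest library for 22 of the 31 genes that rose, and replicates 2 and 4 were the lowest for 15 and 14. Within the sham group, replicate 2 was the lowest for 27 of the 31.

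Marker levels of the cells in the fat pad differed between the groups as well, those of adipocytes and fibroblasts in the direction of the matrix sum and those of lymph node stroma and lymphocytes against it. Over all genes tested, 24.3% were called higher and 19.3% lower, and the share of fibroblast and progenitor markers called lower was close to the latter. Summed white adipocyte markers ranged from 3454 to 6989 CPM in sham and from 22270 to 52790 CPM in imBAT libraries, lowest in sham replicate 2 and highest in imBAT replicate 3. Summed fibroblast and adipose progenitor markers ranged from 912.7 to 1098 CPM in sham and from 1215 to 1939 CPM in imBAT; 15 of 22 tested rose and 4 fell (median 1.10), among them Pdgfra (2.21-fold higher) and Icam1 (1.62-fold lower). With any 1 library left out, 1 to 3 of these markers were called lower: 1 without sham replicate 3 or imBAT replicate 2, and 2 without sham replicate 1, sham replicate 2 or imBAT replicate 4. Summed lymph node stromal markers ranged from 2623 to 3346 CPM in sham and from 1113 to 1747 CPM in imBAT. Most of the sham sum came from Clu and Glycam1, with means of 1038 and 883.1 CPM in sham and 443.1 and 235 CPM in imBAT. Of 14 tested, 10 fell and 1, Ltbr, rose, or 2 without imBAT replicate 2 (median -1.13), with Grem1 4.49-fold lower. No marker of any list was at 0 in every library. Summed T cell markers ranged from 2256 to 2907 CPM in sham and from 370.7 to 1218 CPM in imBAT, and summed B cell markers from 2511 to 2886 and from 630.4 to 1170 CPM. The part of these cells in the levels of the 38 genes was not tested beyond the fit with the lymphoid score.

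**Figure D4:**
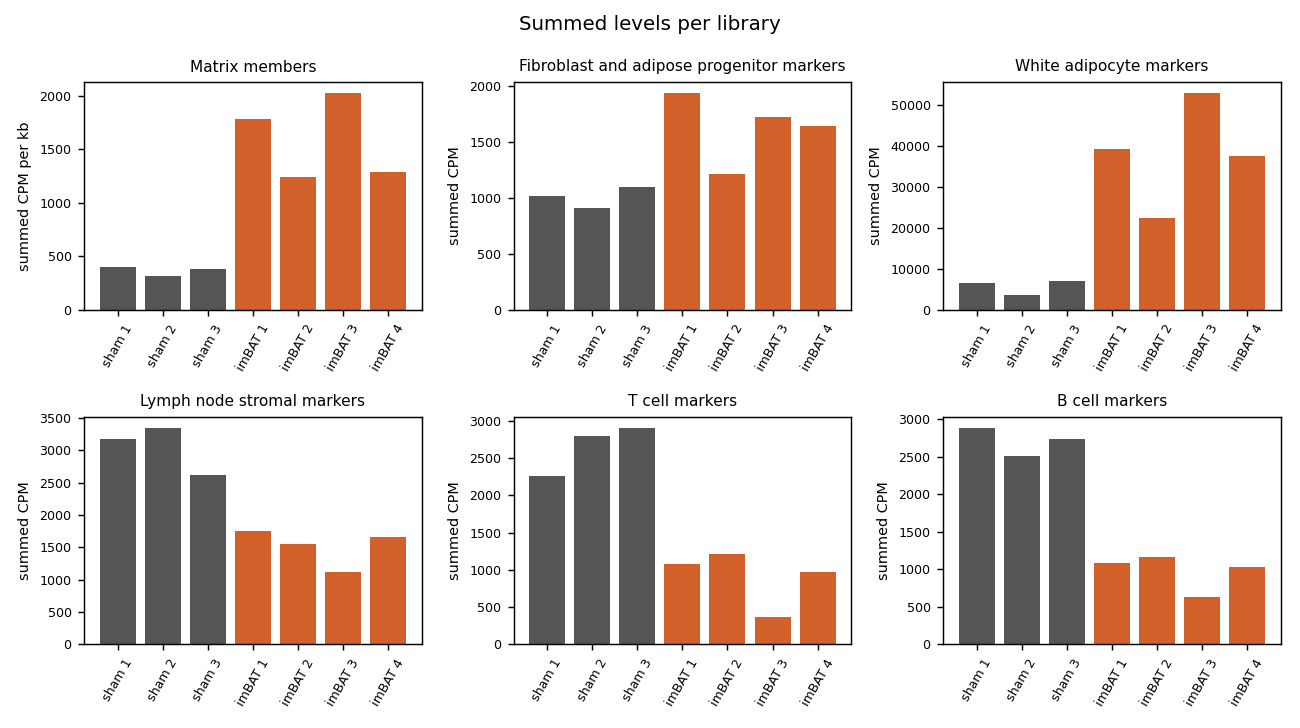
Summed level per library of the 38 matrix genes (CPM per kb of exon) and of 5 lists of cell type markers (CPM); grey bars are sham and orange bars imBAT libraries, and each panel has its own axis from 0. The matrix sum is between 316.4 and 402.3 in sham and between 1239 and 2023 in imBAT, while the T cell, B cell and lymph node stromal sums are lower in every imBAT library than in any sham library.

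Other genes of the matrix were taken from 4 further lists. Over all genes tested, 24.3% were called higher and 19.3% lower, and the shares called lower among the fibrillar collagens and the TGF-beta genes were close to the latter. Of 11 fibrillar collagens 7 rose and 2 fell (median 2.69): Col1a1 and Col1a2, the chains of collagen I, rose 10.6-fold and 6.43-fold, and Col11a2 and Col24a1 fell 2.19-fold and 2.01-fold. Only 1 of these collagens was called lower, and Col24a1 was not, without sham replicate 1, sham replicate 2 or imBAT replicate 1. Of 23 tested collagen-modifying and folding enzymes 21 rose and the other 2 were not called (median 1.29), among them Bmp1, the protease that trims procollagen and activates lysyl oxidase, at 3.34-fold and the prolyl hydroxylase P3h3 at 2.55-fold. Of 45 other tested matrix glycoproteins and proteoglycans 29 rose and 3 fell (median 1.23): Sparcl1, a relative of Sparc, rose 4.57-fold and Hmcn1, a hemicentin, 3.03-fold, while Tnn, a tenascin, and Chad, the leucine-rich chondroadherin, fell 3.08-fold and 1.75-fold. Without sham replicate 1 or sham replicate 2 the number that fell was 1, and Chad was not called. Of 18 genes of TGF-beta signalling 9 rose and 4 fell (median 0.39): Ltbp4, which binds latent TGF-beta to microfibrils, rose 3.20-fold and the co-receptor Tgfbr3 1.90-fold, while Nrros, which holds latent TGF-beta on myeloid cells, and the SMAD repressor Skil fell 1.50-fold and 1.45-fold. The number of these genes called lower was 2 to 5 with 1 library left out, and 2 without sham replicate 2 or sham replicate 3. The median over the 38 genes was thus below that of the fibrillar collagens and above those of the other 3 lists, a difference that was not tested.

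Markers of further cell types stood as follows in the same fit, where 24.3% of all genes tested were called higher and 19.3% lower. Of 18 macrophage markers 11 rose and 1 fell (median 1.41), of 14 blood endothelial markers 11 rose and 1 fell (median 0.93), of 13 mural cell markers 9 rose and 1 fell (median 0.95), and all 16 mammary epithelium markers rose (median 2.04). The macrophage rise was not seen in every imBAT library. Summed macrophage markers ranged from 1319 to 1478 CPM in sham. They stood at 2895, 1061, 2409 and 2271 CPM in imBAT replicates 1 to 4, so replicate 2 lay below every sham library. For 9 of the 18 the groups did not overlap, as for 52% of all genes tested. With 1 library left out, 8 to 14 macrophage markers were called higher and 0 to 2 lower (0 without sham replicate 1, sham replicate 2 or imBAT replicate 2, and 2 without imBAT replicate 4). The endothelial marker that fell was not called without sham replicate 2 or sham replicate 3. For 17 of the 38 matrix genes some exon bases are shared with another gene in the GENCODE annotation, and whether counting used strand is not given in the sources used here. In 4 of them the other gene had more counts: Mtx1 shares 318 bases with Thbs3, Htra2 535 with Loxl3, Mus81 173 with Efemp2 and Mapk7 89 with Mfap4, so the values of these genes are uncertain to that extent. Rtraf, which shares 437 bases with Nid2, had 15276 counts against 17413 for Nid2. The Nid2 value and the Nid1 to Nid2 ratio are uncertain in the same way.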

How the data were processed

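The values are raw counts of reads per gene, deposited by the authors as 1 table of 7 libraries of inguinal fat RNA. Per the labels' protocols, STAR 2.7.9a aligned them to the Ensembl release 101 genome; the submitters' processing notes also name featureCounts 2.0.3 and Salmon 1.5.2 without saying what each did. How strand and multi-mapping reads were handled is not stated in the sources used here. Of 55774 rows, 287 repeated an identifier with identical counts and were dropped; 0 count columns lacked a sample. Coordinates and exon lengths came from GENCODE M21 (GRCm38), which held 55227 of the 55487 genes. No pair of libraries of a group agreed within sampling noise (chi-square per degree of freedom 22.5 to 241.2).

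The comparison used edgeR 4.0.16 in R 4.3.3: TMM scaling, default expression filter (minimum count 10), a robust quasi-likelihood F test with group alone (5 residual degrees of freedom) and Benjamini-Hochberg adjustment over 26393 genes. The SE is the log2 fold change divided by the square root of F. The alternatives tried were no filter, RLE or upper-quartile scaling, a filter of 1 CPM in 3 libraries, DESeq2 1.42.0, limma 3.58.1 voom, a title-number block, each library left out, thinned counts, a lymphoid covariate and an adjusted p under 0.10. The steps were also run on simulated counts in which few genes changed, evenly up and down. That run does not show how the calls behave where as many genes differ as here. The 38 genes, the 13 other lists and the tests were chosen with earlier results of these data known. Values in every library are given, by rule, for the 3 genes of each role with the smallest p and for each gene that fell or was not called; of each other list up to 4 genes are named, by p and by direction. Optc, Kera, Epyc, Ecm2, Aspn, Omd, Clu, Glycam1 and the ratios were chosen after values were seen. Some markers stand in 2 lists (Pdpn, Cr2 and Cspg4). No list was tested as a set.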

Additional observations from a re-analysis of the deposited data

Results flagged for a closer look

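Matn2, the matrilin gene, had 1 library far from the rest of its group: imBAT replicate 3 had 51.1 CPM, while replicates 1, 2 and 4 lay between 33.4 and 34.8 CPM. The gap was 0.919 of the whole range, past Dixon's limit for 4 values. Without that library the log2 fold change of Matn2 was 1.06 in place of 1.28, still called by edgeR (adjusted p = 0.00197). Such a gap was looked for in 44 sets of 4 imBAT values, and chance gives it in about 1 of 20.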

How the results depend on the processing

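Of the 33 matrix genes called, 32 kept their direction and call under every alternative but the lymphoid covariate, which called 0 higher and 0 lower. That fit has 1 fewer residual degree of freedom than the main fit, and the score correlated with group at -0.88. The fit with a title-number block, which leaves still fewer residual degrees of freedom, kept 31 higher and 2 lower. Why the calls were lost with the covariate was not tested further. With 1 library left out, 31 to 32 of the genes were called higher and 1 to 2 lower (1 without sham replicate 2, when Tnc was lost), and over all genes 4495 to 6447 were called higher and 3024 to 5097 lower, with 3024 without sham replicate 2 and 3074 without sham replicate 3. Over all genes 2 were called higher and 0 lower with the covariate, and 8180 lower with upper-quartile scaling. The sign reversed for 4 genes that were not called in that setting: Thbs4 (-0.0012 without imBAT replicate 4, and up to 0.61 without another library), Emilin1 (-0.082) and Bgn (-0.11) with upper-quartile scaling, and the T cell gene Cd8b1 (0.13) with the covariate. Cd8b1 is itself part of the lymphoid score, so its reversal in that fit is not informative. Loxl4 was called with limma voom and Fbn2 without imBAT replicate 4. The log2 ratio of the summed proteoglycan level was 1.22 with upper-quartile scaling against 1.46 with TMM. With the number that opens each title (28, 29 or 31 in both groups) as a replicate block, 31 of the genes were called higher and 2 lower, and over all genes 6198 and 4655; the block changed no call among the 38. The deviations of same-numbered libraries correlated at 0.10, 0.11 and -0.01, and those of differently numbered libraries at -0.14 to 0.04. The values of 0.10 and 0.11 were thus the highest, but all were weak, and the numbers were not taken to pair libraries. No sham library shares number 22 with imBAT replicate 2, which therefore adds nothing to the group contrast of the blocked fit. Genes under about 1 CPM, such as Mfap4 in sham, rest on few counts.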
